A study of Homo sapiens with 23 samples.

Results

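Expression of the kinesin genes was followed in HEK293T cells while they took up and expressed a plasmid. The line derives from human embryonic kidney and makes SV40 large T antigen. Members were all genes whose symbol is KIF followed by a number, with optional letters. They came to 38 of the 20009 genes tested, measured by 79 of the 54675 probe sets of each Affymetrix array. By role they were divided into 11 mitotic kinesins, 13 kinesins of cargo transport and 14 others. KIF2A, a depolymerase of spindle poles and neurons, and KIF2B were counted among the others, so counts by role depend on this division. KIF4B, a near-identical copy of KIF4A, had no probe set of its own, so signal from both copies cannot be told apart. KIFC1, KIFC2, KIFC3 and CENPE are kinesins by sequence but lie outside the symbol rule, and are given beside the family.

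All cells came from the same line. Polyplexes, which are particles of a cationic polymer and DNA, were made from 25 kDa branched polyethylenimine (bPEI) and the reporter plasmid pEGFP-LUC, and were added 18 h after seeding. At 2 h, cells that had received polyplexes (treated, 3 arrays) were compared with cells that had not (untreated, 2 arrays). At 8, 16 and 24 h, all cultures had received polyplexes, and flow cytometry split them into cells with GFP fluorescence (GFP-positive, 3 arrays per time) and cells without it (GFP-negative, 3 arrays per time). The GFP-negative cells are therefore not untreated cells, and the 2 h comparison is of another kind than the later ones. RNA was extracted with Trizol and a column at 2, 8 and 16 h, and with Trizol alone at 24 h. The labels call the arrays biological replicates, and the series text speaks of repeats on separate days, but no label ties an array to a day or states a separate culture. The p-values therefore measure the spread between these arrays, whose number limits the precision.

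Values are log2 expression from the RMA method, as deposited. A difference is the mean of the GFP-positive (or treated) arrays minus the mean of the GFP-negative (or untreated) arrays, its error is the standard error (SE) of a limma fit over 17 arrays, and the threshold was an adjusted p of 0.05 after Benjamini-Hochberg correction across the 20009 genes. Levels were compared only within a time, since array medians lay apart by time, at 4.85 to 4.90 for 2 h, 4.66 to 4.71 for 8 h and 4.96 to 5.10 for 16 h. GAPDH signal from the 3′ end minus the 5′ end, a measure of RNA integrity, stood apart for replicate 3 in both 8 h groups. It was 0.521 on that GFP-positive and 0.498 on that GFP-negative array, against 0.279 to 0.335 on the other 4, and the same measure for ACTB was 2.15 and 2.28 against 1.68 to 1.89. At 2 h, treated replicate 1 had an ACTB value of 2.68, against 1.23 to 1.44 on the other 4 arrays. Of the markers of the HEK293 line, vimentin (VIM) lay between 11.7 and 12.9 on every array. The leukocyte marker PTPRC lay between 2.32 and 3.56 and the stromal marker LUM between 1.96 and 3.02. Neither the 5 measured haematopoietic nor the 5 stromal markers had a member that passed in any comparison at 2, 8 or 16 h. Of the 6 HEK293 markers, NEFL (-0.50, SE 0.091) and ENO2 (-0.71, SE 0.111) were lower in GFP-positive cells at 8 h. Both were also lower at 16 h, and NEFL was lower in treated cells at 2 h. Their part in the kinesin results was not tested.

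Kinesins are motor proteins that use ATP to move along microtubules or to take microtubule ends apart. Mitotic kinesins separate the spindle poles, move and align the chromosomes and organise the midzone where the cell divides, and in cycling cells their mRNAs build up towards G2 and mitosis. Many genes with this timing carry a cell cycle genes homology region (CHR) near the transcription start, bound by DREAM and MuvB complexes, together with CCAAT boxes bound by the factor NF-Y. Transport kinesins instead carry vesicles, organelles and RNA through cells at every stage of the cycle.

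Promoters of 8 kinesins that the results turn on are shown to set those with and without these letters beside each other. The stretches below run 5′ to 3′ from 100 bases before to 10 bases after the RefSeq start of the gene on GRCh38.p14, with CHR letters (TTTGAA or TTCGAA) and CCAAT boxes in capitals, where TTCAAA and ATTGG are the same letters read on the other strand. KIF23, KIF11, KIF22, KIF20A and KIF18B are the mitotic kinesins that were lower in GFP-positive cells at 8 h, KIF15 and KIF4A are mitotic kinesins that were not, and KIF3C is a transport kinesin that was lower. KIF20A shows CCAAT letters alone, KIF15 CHR letters alone, KIF3C neither, and the other 5 both.
KIF23, chr15:69414249-69414358, plus strand: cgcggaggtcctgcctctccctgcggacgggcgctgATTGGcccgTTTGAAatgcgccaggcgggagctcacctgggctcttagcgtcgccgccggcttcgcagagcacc
KIF11, chr10:92593030-92593139, plus strand: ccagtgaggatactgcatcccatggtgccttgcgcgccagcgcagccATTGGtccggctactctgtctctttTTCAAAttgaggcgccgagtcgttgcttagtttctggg
KIF22, chr16:29790651-29790760, plus strand: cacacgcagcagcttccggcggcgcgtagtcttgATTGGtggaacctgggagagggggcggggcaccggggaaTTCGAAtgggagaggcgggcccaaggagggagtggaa
KIF20A, chr5:138179012-138179121, plus strand: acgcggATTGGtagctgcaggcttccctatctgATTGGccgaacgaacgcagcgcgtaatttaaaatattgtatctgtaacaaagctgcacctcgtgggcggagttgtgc
KIF18B, chr17:44947764-44947873, minus strand: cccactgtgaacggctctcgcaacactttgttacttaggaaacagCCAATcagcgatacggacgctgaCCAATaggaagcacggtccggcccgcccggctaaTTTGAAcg
KIF15, chr3:44761694-44761803, plus strand: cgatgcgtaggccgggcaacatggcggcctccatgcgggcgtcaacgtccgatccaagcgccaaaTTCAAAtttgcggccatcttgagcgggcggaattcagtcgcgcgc
KIF4A, chrX:70290004-70290113, plus strand: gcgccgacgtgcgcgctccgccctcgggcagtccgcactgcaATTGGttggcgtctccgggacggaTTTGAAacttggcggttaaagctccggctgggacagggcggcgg
KIF3C, chr2:25982488-25982597, minus strand: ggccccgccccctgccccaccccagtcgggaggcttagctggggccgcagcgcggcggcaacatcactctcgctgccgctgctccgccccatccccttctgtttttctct

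Promoter windows of 300 bases, from 250 before to 50 after the start, were found for 32 of the 38 kinesins. CHR letters on either strand were present in 9 of 11 mitotic, 1 of 11 transport and 1 of 10 other kinesin promoters, against 16.6% of all 27305 promoters and 12.8% of the 14338 promoters of genes tested here. CCAAT was present in 9 of 11 mitotic, 3 of 11 transport and 3 of 10 other kinesin promoters, against 35.7% of all promoters. Both motifs occurred together in 8 of 11 mitotic kinesins, in KIF5B among the transport kinesins and in KIF24 among the others, against 6.58% of all promoters. No CHR and CCAAT match overlapped in a kinesin promoter. Among mitotic kinesins the CHR letters were not found in this window for KIF2C and KIF20A. KIF2A and KIF2B, counted among the others, held neither motif. A match is a string of letters and was not tested as a binding site.

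**Figure D1:**
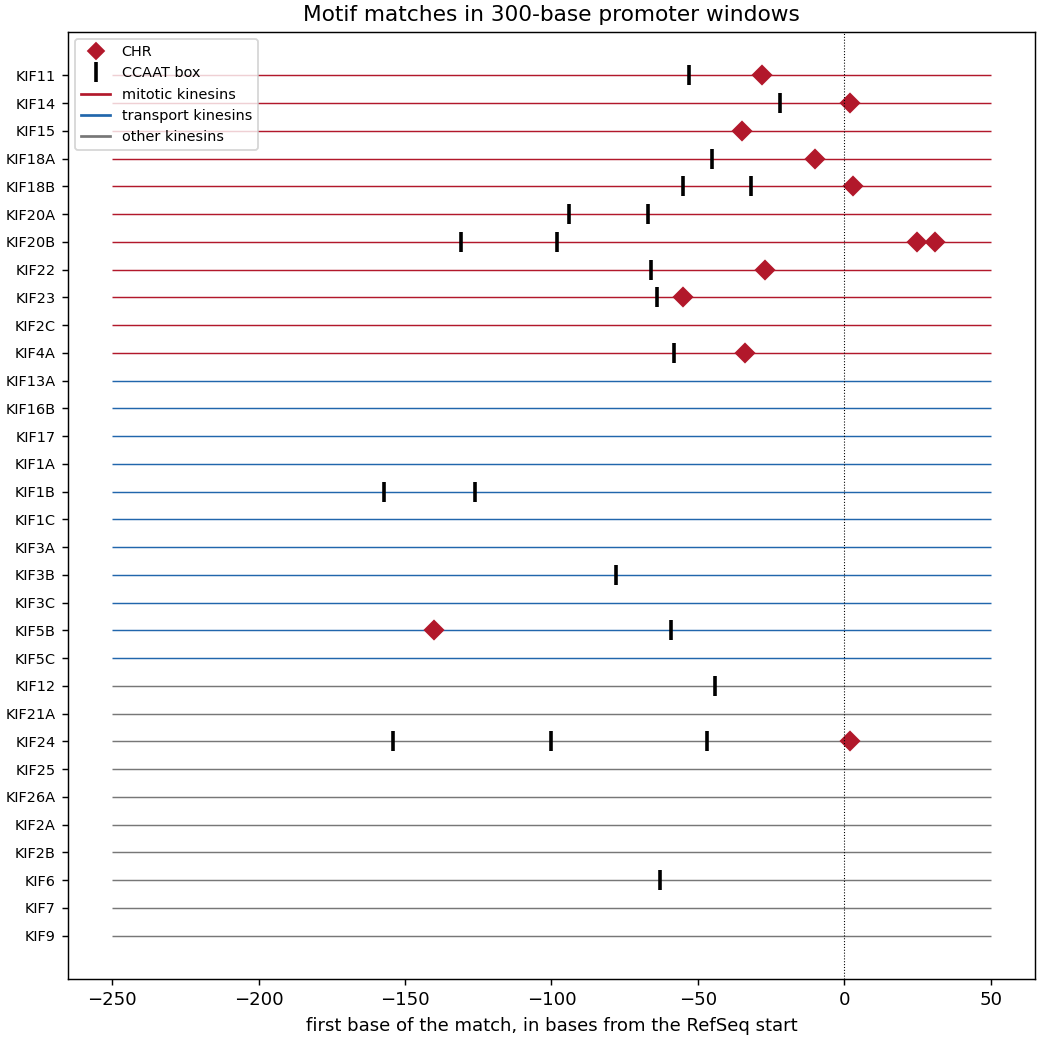
Positions of CHR (TTTGAA or TTCGAA) and CCAAT matches on either strand in the 300-base promoter windows of kinesin genes, with the distance in bases from the RefSeq start on the x axis and 1 line per gene. Of the mitotic kinesins, 9 of 11 hold CHR letters, whereas 1 of 11 transport kinesins does.

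At 8 h, 8 kinesins were lower in GFP-positive than in GFP-negative cells and 0 were higher. Of all genes tested, 8.27% passed lower and 4.13% higher in this comparison. With replicate 3 of both groups left out, a setting chosen after seeing its control signals, KIF23 alone passed (difference -0.64, adjusted p = 0.00459), and 3.56% of all genes passed lower. The lower kinesins were 5 of 11 mitotic (KIF23, KIF11, KIF22, KIF20A and KIF18B), 2 of 13 transport (KIF3C and KIF13A) and 1 of 14 other kinesins (KIF21B). Differences of the mitotic kinesins ran from -0.72 to 0.26 with a median of -0.22, those of transport kinesins from -0.40 to 0.21 with a median of -0.24, and those of the other kinesins from -0.33 to 0.37 with a median of 0.15. The median over all genes was -0.01. The arrays of the 2 groups did not overlap for 10 kinesins that were lower and 6 that were higher, where 16.2% and 11.4% of all genes did so. With the genes in the lower 40% of mean level left out, 7 of 31 remaining kinesins passed lower, beside 15.8% of genes. Fewer cells in G2 or mitosis and less RNA per cell cannot be told apart in these sorted populations.

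**Figure D2:**
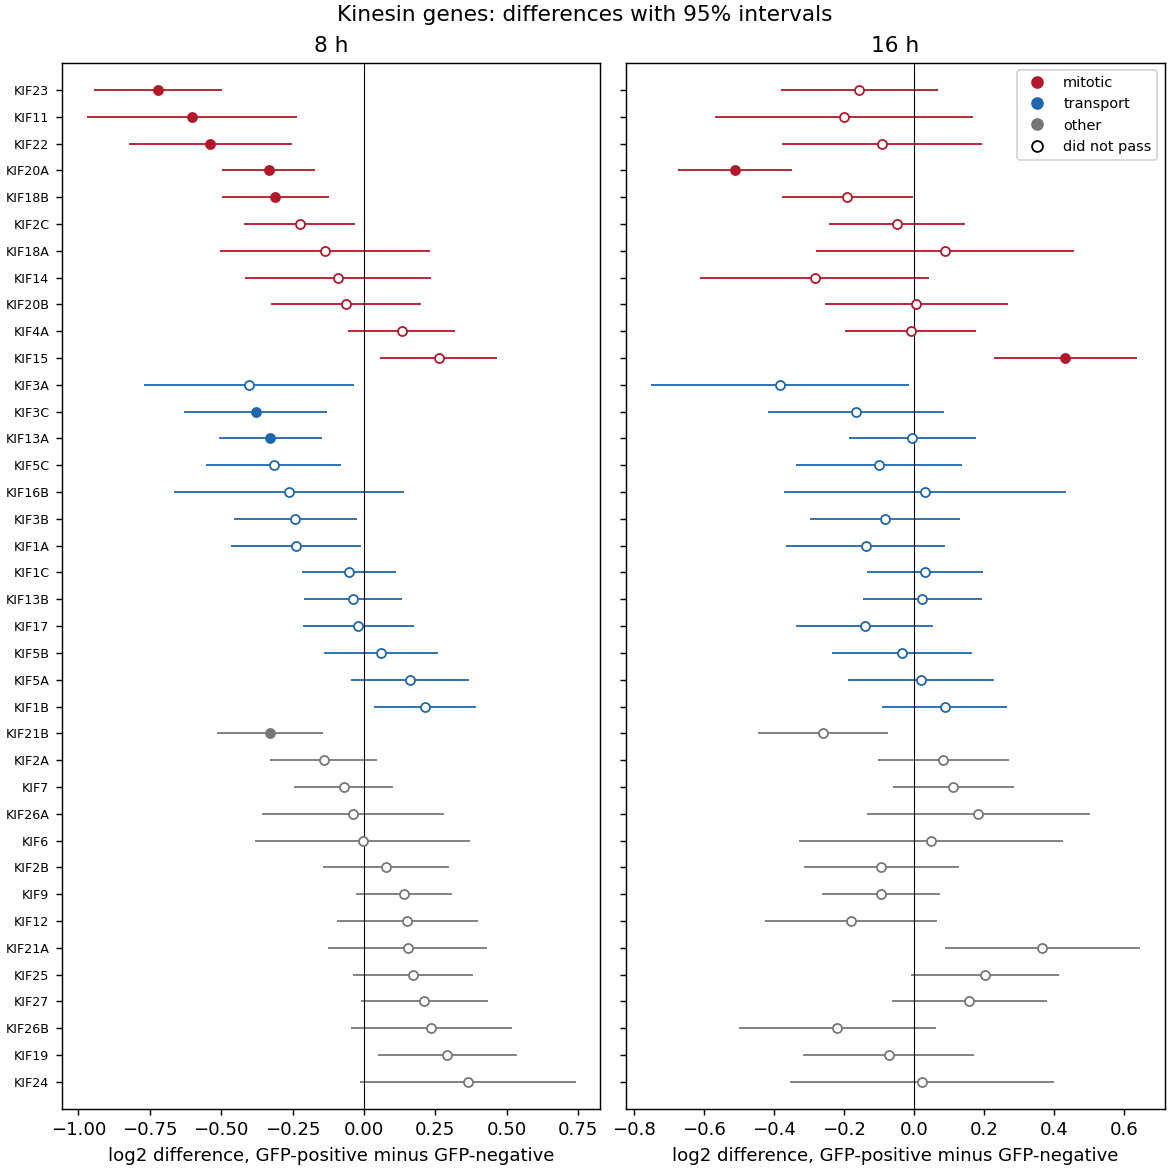
Log2 difference between GFP-positive and GFP-negative cells for each of the 38 kinesins at 8 h and 16 h, ordered by role, with lines for the 95% interval of the limma fit and filled points for genes that passed. At 8 h the 8 kinesins that passed all lie below 0, and at 16 h KIF20A lies below and KIF15 above it.

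Of the cytokinesis kinesins, KIF23 and KIF20A were lower at 8 h. KIF23, also called MKLP1, is the motor of the centralspindlin complex that bundles the midzone and is needed to complete cell division. At 8 h its level was 8.15, 8.10 and 8.26 on the 3 GFP-positive arrays, and 8.80, 8.74 and 9.14 on the 3 GFP-negative arrays. All GFP-positive arrays lay below all GFP-negative arrays, and the difference of -0.72 (SE 0.106, adjusted p = 0.000507) is a 1.65-fold lower level. It passed under each of the 14 other settings, and also with replicate 3 of both groups left out, with an adjusted p of up to 0.0108, and a second, dimmer KIF23 probe set differed by -0.57 (adjusted p = 0.0550 over all probe sets).

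KIF20A, or MKLP2, brings the chromosomal passenger complex to the midzone. Its 8 h levels were 8.43, 8.54 and 8.48 in GFP-positive and 8.77, 8.86 and 8.81 in GFP-negative cells. The groups did not overlap, and replicates within each group lay close together (difference -0.33, SE 0.078, adjusted p = 0.00974). KIF20A passed under 12 of 14 alternatives. KIF14, which binds citron kinase and PRC1 at the midbody, measured 8.53, 8.65 and 8.98 in GFP-positive and 8.83, 8.56 and 9.04 in GFP-negative cells. These groups overlapped (difference -0.09, SE 0.155), but a second KIF14 probe set gave -0.59 (adjusted p = 0.0396 over all probe sets), so the probe sets of this gene disagree. KIF20B, or MPHOSPH1, a midzone motor of late cytokinesis, overlapped between groups as well (difference -0.06, SE 0.124).

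Of the kinesins that push spindle poles apart, KIF11 was lower and KIF15 did not pass. KIF11, the mitotic kinesin Eg5, crosslinks antiparallel microtubules to build a bipolar spindle. Its 8 h levels were 8.47, 8.44 and 8.53 in GFP-positive and 8.85, 8.81 and 9.59 in GFP-negative cells. The groups did not overlap, and GFP-negative replicate 3 lay well above its other 2 replicates (difference -0.60, SE 0.175, adjusted p = 0.0315). Without that array the difference was -0.35 with an adjusted p of 0.150, so 1 array sets much of its size. That array is one of the 2 with the high GAPDH and ACTB values, and without both of them the KIF11 difference was -0.38 (adjusted p = 0.197). KIF11 also failed to pass without any one of the 3 GFP-positive arrays (adjusted p 0.0602 to 0.0938), and passed under 7 of 14 alternatives. Corrected over all probe sets, its only probe set did not pass (limma adjusted p = 0.0507).
KIF15, also called HKLP2, can keep a spindle bipolar when Eg5 is inhibited. Its 8 h levels were 7.73, 7.63 and 7.82 in GFP-positive and 7.43, 7.42 and 7.54 in GFP-negative cells. Each GFP-positive array was thus above every GFP-negative array, but the difference of 0.26 (SE 0.097) did not pass (adjusted p = 0.0866). It passed when the 17 arrays were quantile normalized (adjusted p = 0.00460) or centred on their medians (adjusted p = 0.0294).

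Among the chromokinesins, which hold chromosome arms on the spindle, KIF22 was lower and KIF4A did not pass. KIF22, or Kid, measured 8.04, 7.51 and 7.86 in GFP-positive and 8.42, 8.24 and 8.37 in GFP-negative cells at 8 h. The groups did not overlap, with GFP-positive replicate 2 the lowest (difference -0.54, SE 0.135, adjusted p = 0.0153, 1.45-fold lower). Without that array the adjusted p was 0.0877 and the difference -0.39, while KIF22 passed under the other 13 alternatives, and its second, dimmer probe set gave -0.17 (SE 0.104). KIF4A, which also shapes condensed chromosomes and shortens midzone microtubules, measured 8.80, 9.13 and 8.92 in GFP-positive and 8.70, 8.92 and 8.83 in GFP-negative cells. These groups overlapped, and the interval of the difference ran from -0.06 to 0.32. KIF4A holds both CHR and CCAAT letters, as KIF22 does, so the letters in the window did not separate kinesins that were lower from those that did not pass.

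Kinesins that act on microtubule ends gave 1 call. KIF18B, which shortens astral microtubules, measured 9.14, 9.04 and 9.21 in GFP-positive and 9.45, 9.45 and 9.42 in GFP-negative cells at 8 h. The groups lay fully apart (difference -0.31, SE 0.089, adjusted p = 0.0298), but the gene passed under 5 of 14 alternatives and under none of the fits that left out 1 of the 8 h arrays except the one without GFP-positive replicate 3. KIF2C, or MCAK, the centromere-bound depolymerase that corrects faulty attachments, measured 9.18, 9.18 and 9.22 in GFP-positive and 9.48, 9.46 and 9.32 in GFP-negative cells. Its groups did not overlap, yet the difference of -0.22 (SE 0.092) did not pass (adjusted p = 0.123). KIF18A, which dampens chromosome movement at the metaphase plate, had overlapping groups (difference -0.14, SE 0.175).

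**Figure D3:**
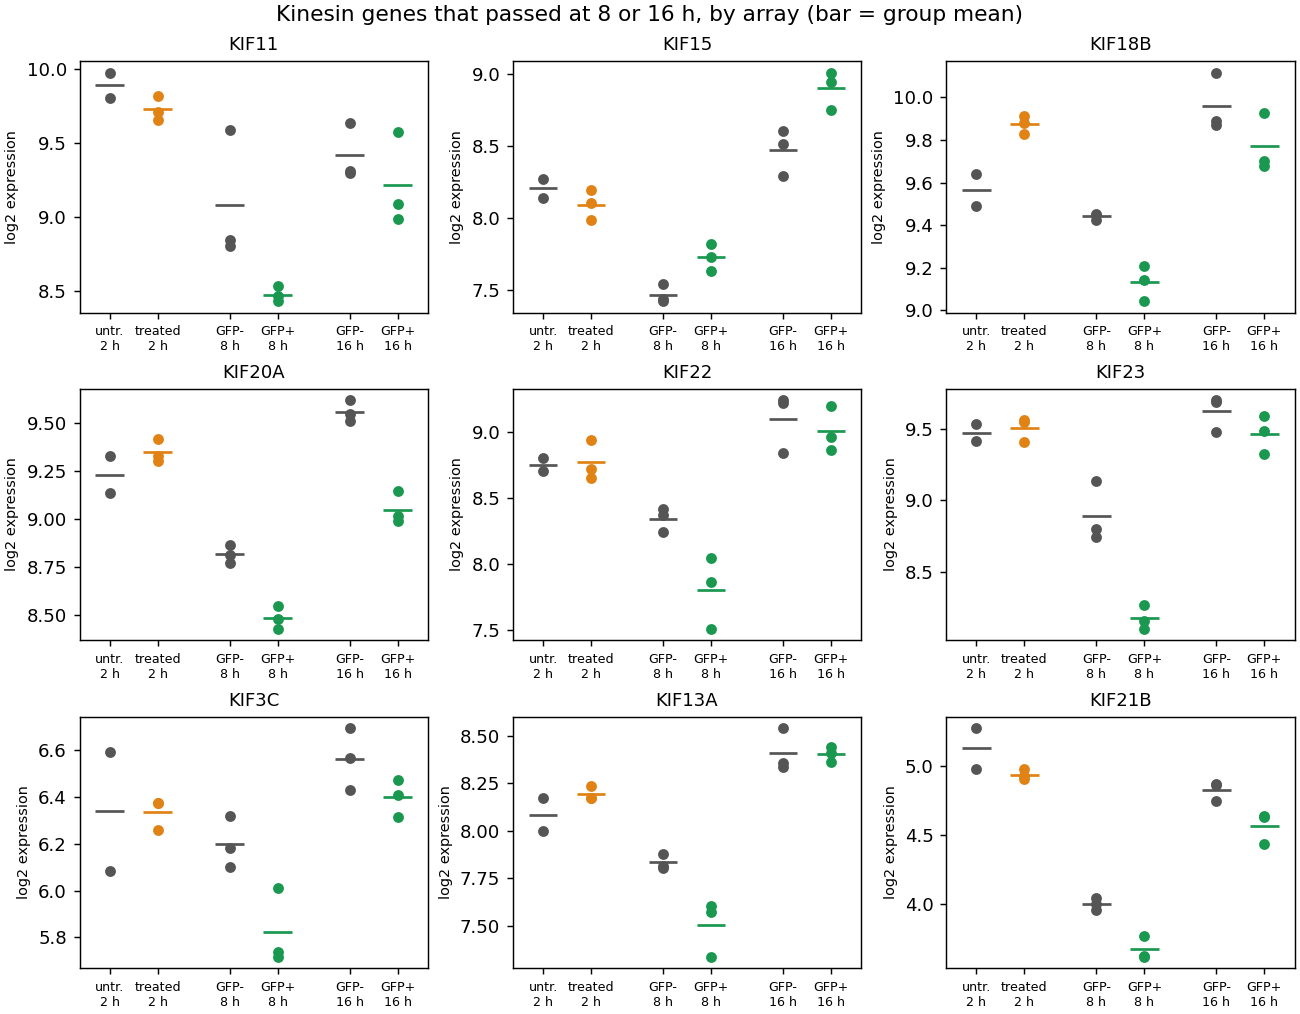
Log2 expression of the 9 kinesins that passed at 8 or 16 h, on each array at 2, 8 and 16 h, with points for single arrays and bars for group means (the y axes differ and do not start at 0). At 8 h every GFP-positive KIF23 array (8.10 to 8.26) lies below every GFP-negative array (8.74 to 9.14), and GFP-negative replicate 3 of KIF11 stands at 9.59.

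Of the transport kinesins, KIF3C and KIF13A were lower at 8 h. KIF3C, a kinesin-2 subunit that can pair with KIF3A in place of KIF3B, measured 6.01, 5.73 and 5.72 in GFP-positive and 6.32, 6.10 and 6.18 in GFP-negative cells. The groups were apart (difference -0.38, SE 0.119, adjusted p = 0.0449), but the gene passed under 5 of 14 alternatives and its second probe set gave -0.15 (SE 0.118). Corrected over all probe sets, the brighter KIF3C probe set did not pass (limma adjusted p = 0.0706). KIF13A, which carries recycling endosomes, measured 7.34, 7.61 and 7.57 in GFP-positive and 7.81, 7.81 and 7.88 in GFP-negative cells (difference -0.33, SE 0.086, adjusted p = 0.0191). It passed under 8 of 14 alternatives. The median of its 6 probe sets differed by -0.10 (adjusted p = 0.497), so the call rests on the brightest of them.

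KIF3A and KIF3B, which form the main kinesin-2 motor of cilia, differed by -0.40 (SE 0.175, adjusted p = 0.146) and -0.24 (SE 0.102, adjusted p = 0.137). KIF3A was 7.76, 7.85 and 8.08 in GFP-positive and 8.16, 8.08 and 8.67 in GFP-negative cells, so that 1 array of each group met at 8.08. KIF5C, a kinesin-1 heavy chain enriched in neurons, differed by -0.32 (SE 0.112, adjusted p = 0.0744). At 8 h, arrays with the same replicate number deviated together, and with that number as a block KIF3A (adjusted p = 0.0384) and KIF5C (adjusted p = 0.0480) also passed lower, while the 8 calls described here were kept, in a fit where 10.1% of all genes passed lower. KIF5B, the widely expressed kinesin-1 heavy chain, was 9.95, 10.08 and 10.19 in GFP-positive and 10.10, 9.83 and 10.10 in GFP-negative cells. Its groups overlapped, with an interval from -0.14 to 0.26, and KIF5A, the third heavy chain, differed by 0.16 (SE 0.099).

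In the kinesin-3 group, which moves vesicles and mitochondria, KIF1A differed by -0.24 (SE 0.108), KIF1C by -0.05 (SE 0.078), KIF13B by -0.04 (SE 0.081) and KIF16B by -0.26 (SE 0.191). None of these 4 passed. KIF1B measured 8.83, 9.05 and 9.04 in GFP-positive and 8.75, 8.75 and 8.78 in GFP-negative cells, without overlap (difference 0.21, SE 0.084, adjusted p = 0.109). It passed higher after quantile normalization (adjusted p = 0.0460), whereas another KIF1B probe set gave -0.45 (adjusted p = 0.0431 over all probe sets), so its direction depends on the probe set. KIF17, a dendritic and ciliary motor, differed by -0.02 (SE 0.092).

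Among the 14 other kinesins, KIF21B alone passed. KIF21B, which restrains microtubule growth in neurons and lymphocytes, measured 3.62, 3.63 and 3.77 in GFP-positive and 3.96, 4.05 and 4.01 in GFP-negative cells. The groups were apart (difference -0.33, SE 0.088, adjusted p = 0.0211), at a level below the array medians. It belongs to the lower 40% of genes by mean level and passed under 6 of the 13 alternatives that tested it. The remaining 13 differed by between -0.14 (KIF2A) and 0.37 (KIF24). KIF2A is a depolymerase of spindle poles and neurons, and KIF24 works with the capping protein CP110 at the mother centriole. KIF2B differed by 0.08 (SE 0.105). Of the 14, 4 had non-overlapping groups with the GFP-positive arrays higher, where 11.4% of all genes did so, and none of these 4 passed. KIF7, the Hedgehog pathway motor of the ciliary tip, differed by -0.07 (SE 0.082).

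**Figure D4:**
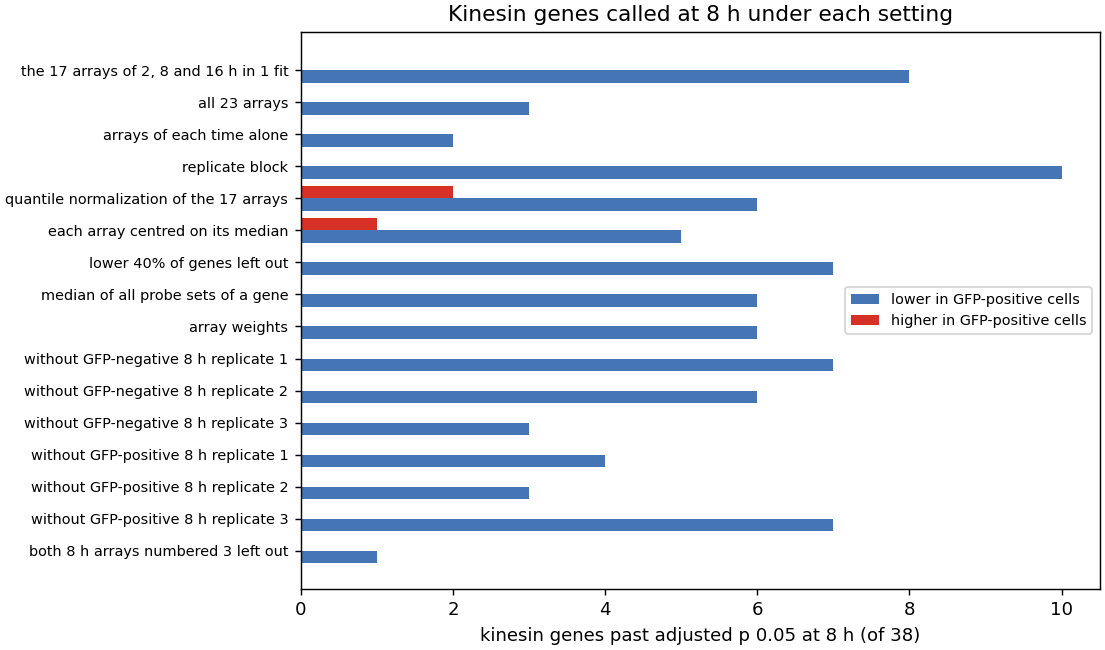
Number of kinesins past the threshold at 8 h, lower or higher in GFP-positive cells, in the reported fit (top) and under each alternative setting; 38 were tested, or 31 with the lower 40% of genes left out. The lower count is 8 as reported and ranges from 1 (both arrays numbered 3 left out) over 2 (arrays of each time alone, where 3.81% of all genes passed lower) to 10 (replicate number as a block).

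Transcripts of proteins that work with the mitotic kinesins were read from the same arrays. Of 15 spindle and cytokinesis partners, 6 were lower in GFP-positive cells at 8 h and 0 were higher, with a median difference of -0.30. The shares over all genes were 8.27% lower and 4.13% higher. Values of this and the later lists are from the reported fit alone. With both 8 h arrays numbered 3 left out, 3.56% of all genes passed lower. AURKA, the spindle pole kinase, differed by -0.92 (SE 0.084, adjusted p = 6.26e-06), and AURKB, the kinase that KIF20A brings to the midzone, by -0.58 (SE 0.084). RACGAP1, the partner of KIF23 in centralspindlin, differed by -0.48 (SE 0.083, adjusted p = 0.00131) and PRC1, the midzone crosslinker that binds KIF4A and KIF14, by -0.45 (SE 0.083). TPX2, which activates AURKA, differed by -0.49 (SE 0.105), and CDCA8, a subunit of the passenger complex, by -0.56 (SE 0.080).

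Outside the symbol rule, 15 further motors and light chains gave 1 lower and 1 higher call at 8 h. Over all genes, 8.27% passed lower and 4.13% higher, which also stands beside the regulators and tubulins below. KIFC1, a minus-end motor that focuses spindle poles, was lower by -0.51 (SE 0.108, adjusted p = 0.00580). MAPK8IP3, an adaptor between kinesin-1 and its cargo, was higher by 0.48 (SE 0.134, adjusted p = 0.0259). CENPE, the kinetochore motor that brings chromosomes to the metaphase plate, differed by -0.06 (SE 0.169), KIFC2 by -0.07 (SE 0.112) and KIFC3 by 0.11 (SE 0.111), and none of these passed. Of 15 regulators of G2 and mitotic transcription, 3 were lower and 1 was higher. FOXM1, an activator of mitotic genes, differed by -0.34 (SE 0.091), LIN37, a MuvB subunit, by -0.68 (SE 0.178) and NFYC, a subunit of NF-Y, by -0.30 (SE 0.094). E2F8, a repressor of E2F targets, was higher by 0.57 (SE 0.149, adjusted p = 0.0179). Of 12 tubulins, the track of the motors, TUBB (-0.28, SE 0.082) and TUBG1 (-0.28, SE 0.083) were lower and 0 were higher.

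At 16 h, 2 kinesins passed, both mitotic. KIF20A was lower and KIF15 was higher in GFP-positive cells, where 2.76% of all genes passed lower and 3.56% higher. With 1 of 38 kinesins in each direction, the kinesin shares are close to those of all genes. KIF20A measured 9.14, 8.99 and 9.01 in GFP-positive and 9.55, 9.51 and 9.62 in GFP-negative cells. The groups did not overlap (difference -0.51, SE 0.078, adjusted p = 0.000872, 1.43-fold lower). KIF15 measured 9.01, 8.75 and 8.95 in GFP-positive and 8.51, 8.29 and 8.61 in GFP-negative cells. Every GFP-positive array was above every GFP-negative array (difference 0.43, SE 0.097, adjusted p = 0.0129, 1.35-fold higher).
KIF20A passed under 13 of 14 alternatives and KIF15 under 10, and with the 24 h arrays in the fit neither passed (adjusted p = 0.0515 and 0.321). In that fit 13 of 20009 genes passed higher and 7 lower, against 712 and 553 as reported.

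The kinesins that were lower at 8 h, other than KIF20A, did not pass at 16 h. KIF23 was 9.59, 9.32 and 9.49 in GFP-positive and 9.69, 9.48 and 9.70 in GFP-negative cells, and these groups overlapped (difference -0.16, SE 0.106, adjusted p = 0.445). KIF11 was 9.57, 8.99 and 9.09 in GFP-positive and 9.64, 9.30 and 9.31 in GFP-negative cells, again with overlap (difference -0.20, SE 0.175). KIF22 (-0.09, SE 0.135), KIF18B (-0.19, SE 0.089), KIF3C (-0.17, SE 0.119) and KIF13A (-0.01, SE 0.086) overlapped too. The second probe sets of KIF23, KIF22 and KIF3C differed at 16 h by -0.40, -0.19 and -0.42 (limma adjusted p = 0.223, 0.362 and 0.0513 over all probe sets). For KIF3C this lay further from zero than the -0.15 of the same probe set at 8 h, whereas its brighter probe set moved the other way. KIF21B was apart without passing (-0.26, SE 0.088, adjusted p = 0.0942). The median difference of the mitotic kinesins at 16 h was -0.09, of the transport kinesins -0.04, of the others 0.04 and of all genes -0.03.

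Whether these differences changed between 8 and 16 h was tested in the same fit, and 0 of the 38 kinesins and 0 of all 20009 genes passed (limma). At an unadjusted p under 0.05 the counts were 5 kinesins and 2110 genes. The difference of KIF23 was 0.56 closer to zero at 16 h (SE 0.150, adjusted p = 0.318), that of KIF22 0.45 closer (SE 0.192, adjusted p = 0.434) and that of KIF11 0.40 closer (SE 0.247, adjusted p = 0.572). A loss of the 8 h difference by 16 h is therefore not shown for any kinesin.

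Partners of the mitotic kinesins at 16 h held 3 lower and 1 higher call among 15. Beside these lists, 2.76% of all genes passed lower and 3.56% higher at 16 h. AURKA (-0.57, SE 0.084), AURKB (-0.49, SE 0.084) and TPX2 (-0.42, SE 0.105) were lower, as at 8 h. CIT, the citron kinase that KIF14 binds, was higher by 0.37 (SE 0.079, adjusted p = 0.00895). E2F8 (0.86, SE 0.149) and LIN52 (0.46, SE 0.086), a MuvB subunit, were the 2 of 15 regulators that passed, both higher. MAPK8IP3 (0.56, SE 0.134) was the only call among the other motors and light chains, where CENPE (-0.40, SE 0.169), KIFC3 (-0.35, SE 0.111), KIFC2 (-0.22, SE 0.112) and KIFC1 (-0.22, SE 0.108) did not pass, and 0 of 12 tubulins passed.

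At 2 h, treated and untreated cells gave 0 kinesin calls, where 0.74% of all genes passed in either direction, and 4 of 38 kinesins had an unadjusted p under 0.05, as did 2135 of 20009 genes (limma). The kinesin share is thus close to that of all genes, and the values of these 4 are given as a description. KIF26A, which binds microtubules but has no motor activity, measured 6.75, 6.69 and 6.54 in treated and 5.87 and 6.22 in untreated cells. The groups did not overlap, and the difference of 0.61 (SE 0.168) had an adjusted p of 0.109. It passed when arrays were centred on their medians (adjusted p = 0.0378) or weighted (adjusted p = 0.0172), and 0 kinesins passed without treated replicate 1. KIF18B measured 9.88, 9.83 and 9.91 in treated and 9.64 and 9.49 in untreated cells, also without overlap (difference 0.31, SE 0.099, adjusted p = 0.190), which is the opposite sign to its 8 h and 16 h differences. KIF20B (-0.37, SE 0.139) and KIF6 (-0.48, SE 0.199) were the other 2. None of the partner, regulator, tubulin or other motor lists held a call at 2 h.

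The 24 h arrays stand apart. Each group mean in the authors' deposited tables could be rebuilt from its labelled arrays (within 1e-06) at 2, 8 and 16 h, for each of the 54675 probe sets. At 24 h this held for 0 of them, and no choice of 3 of the 6 arrays matched more than 2 probe sets. The arrays as labelled, fitted on their own, gave 0 calls among the kinesins and among all genes (limma), with 2 kinesins and 341 genes at an unadjusted p under 0.05. Kinesin differences ran from -0.39 (KIF24) to 0.41 (KIF17). KIF15 read 8.58, 8.45 and 8.62 on the arrays labelled GFP-positive and 9.03, 8.99 and 7.84 on those labelled GFP-negative, so 1 GFP-negative array lay far below the other 2. In the authors' deposited table, KIF15 was instead higher by 0.67 with a posterior probability of 0.810, which is the authors' own score between 0 and 1. The same authors' deposited table gave KIF20A -0.32 (0.599), KIF22 -0.33 (0.579) and KIF23 0.00. The direction of a kinesin at 24 h is thus not settled by these data.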

How the data were processed

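The values per array that the authors deposited are log2 expression. The submitters' processing notes name RMA, with R 2.11.1 for 2, 8 and 16 h and R 2.9.0 for 24 h. The authors also deposited 4 tables, 1 per time, of group means, log2 fold changes and a posterior probability, a score between 0 and 1. The CEL intensities were not used here. Gene symbols came from the deposited tables: 41653 of 54675 probe sets had one, and 64 symbols that had become dates were not used. Each gene was read from its probe set of highest mean level across 23 arrays.

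The 17 arrays at 2, 8 and 16 h were fitted as 6 groups in limma 3.58.1 (R 4.3.3) by lmFit with eBayes, with two-sided p-values adjusted by Benjamini-Hochberg across 20009 genes. The 6 arrays at 24 h were fitted alone. The source name of the third GFP-positive 8 h array says 16 h, against its title. The title was followed, and without this array 7 kinesins and 1267 of all 20009 genes passed lower at 8 h (limma). KIF11 (adjusted p = 0.0602) and KIF3C (adjusted p = 0.140) did not pass in that fit, so the 7 are not all among the 8 reported. Deviations of same-numbered arrays from their group means correlated across genes at 0.257 to 0.350 at 8 h and 0.0939 to 0.290 at 16 h. Arrays with different numbers reached at most 0.0455 and 0.0286. Replicate numbers were therefore taken as possible pairs. The reported fit did not use these pairs, which entered only in the replicate block. The alternatives were other sets of arrays, the replicate block, 2 scalings, a filter on low values, the median of probe sets, array weights and each array left out; leaving out both 8 h arrays numbered 3 was added after seeing the data.

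Genes were named by role: mitotic and transport kinesins, other kinesins that passed, and members of 4 partner lists that passed. KIF2A, KIF2B, KIF7 and KIF24, the genes at the ends of a range and the 2 h kinesins were named after their values were seen. Members and lists were chosen with earlier results of these data known. Promoters are from RefSeq (GRCh38.p14). On simulated data with independent normal noise, 200 of 20009 genes were changed, 100 by a log2 difference of 0.5 and 100 by 1. Differences of 0.5 were recovered in 50%, 66% and 62% (2, 8 and 16 h). A difference of 1 was recovered in 96%, 98% and 99%. Pairing of arrays and the number of genes that passed in the data were not simulated, so the rates in the data may differ.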

Additional observations from a re-analysis of the deposited data

How the results depend on the processing

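At 8 h, 8 kinesins passed as reported, 3 with all 23 arrays in the fit and 2 with the arrays of each time alone. Over all 20009 genes, 1655 passed lower as reported, 721 with all 23 arrays and 762 with each time alone. Leaving out 1 array at a time gave 3 to 7: 3 without GFP-negative replicate 3 or without GFP-positive replicate 2, and 4 without GFP-positive replicate 1. In those fits 1021, 906 and 1411 of all genes passed lower, in that order. The count was 7 without GFP-negative replicate 1 or without GFP-positive replicate 3, where 1519 and 1267 of all genes passed lower. With both 8 h arrays numbered 3 left out, an alternative chosen after seeing the data, 1 passed (KIF23), and the 7 other differences kept their sign with adjusted p of 0.0549 to 0.217. In the fits with 2 to 4 calls, all of them were among the 8 as reported. Quantile normalization gave 6 lower and 2 higher and centring on medians 5 lower and 1 higher, while calls over all genes went from 827 higher and 1655 lower to 1151 and 1211, and to 1199 and 1212. At 16 h, 2 kinesins passed as reported, 0 with all 23 arrays, 1 with each time alone and 1 to 4 without 1 array. That count was 4 without GFP-negative replicate 1 and 1 without GFP-negative replicate 2 or GFP-positive replicate 3, where KIF15 was lost (adjusted p 0.0811 and 0.0567). Of all genes, 712 passed higher and 553 lower as reported, 13 and 7 with all 23 arrays, and 377 and 204 with each time alone. Without GFP-negative replicate 1, GFP-negative replicate 2 or GFP-positive replicate 3, 622, 380 and 326 genes passed higher and 595, 245 and 279 lower. At 2 h, 0 passed as reported, 1 with centring and 2 with array weights. Calls over all genes were 42 higher and 106 lower as reported, 123 and 87 with centring, and 260 and 606 with array weights. The replicate block gave 10 lower at 8 h, and 0 calls at 2 h and for the change from 8 to 16 h. It gave 3 calls at 16 h, where KIF21A was added (higher, adjusted p = 0.0369), while 911 of all genes passed higher and 720 lower. At 16 h, same-numbered arrays correlated at 0.0939 to 0.290, and arrays with different numbers at -0.288 to 0.0286. No called difference changed sign under these alternatives, and the cause of the moves was not tested. The change from 8 to 16 h gave 0 kinesin calls in every fit run. Signals near background, such as KIF21B, limit what the arrays resolve.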
